A study of Mus musculus with 4 samples.

Results

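Pleiotrophin (Ptn) and midkine (Mdk), their receptor Ptprz1 and the 4 syndecans (Sdc1, Sdc2, Sdc3 and Sdc4) are described here in cells of the mouse ascending aorta. All 7 genes were found in the count tables of all 3 libraries analysed, among 32272 genes in the series. They were selected on the level of these genes in these same libraries, with earlier results known, among them the higher Ptn of fibroblasts in the CNC library. Every value below is therefore a description and none is a test. The cells came from male Mef2c-mTmG mice, whose fluorescent reporter tells lineages apart. Viable singlets were sorted by lineage and captured with the 10x Chromium 3' v3 kit. The libraries were SHF baseline (second heart field lineage, no infusion), SHF AngII (the same lineage after 3 days of infusion with angiotensin II, a peptide hormone that raises blood pressure) and CNC AngII (the lineage labelled CNC, an abbreviation without explanation in the labels, after the same infusion). The labels name 4 samples, and CNC baseline was not analysed here. The labels give no age, no number of mice per library and no statement on pooling. There was 1 library per group. No difference was checked by replicates, and the 95% intervals cover counting error only.

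Ptn and Mdk are the only members of a small family of secreted, heparin-binding growth factors. Ptprz1 is a receptor tyrosine phosphatase that carries chondroitin sulfate chains, and binding of either factor lowers its phosphatase activity. Syndecans are membrane proteoglycans whose heparan sulfate chains bind Ptn, Mdk and many other growth factors and matrix proteins. Sdc3 was described early as a receptor for Ptn, and Sdc4 is a component of focal adhesions that acts with integrins in binding fibronectin. In arteries, smooth muscle cells form the contractile media, fibroblasts lie mainly in the adventitia, and resident macrophages are found in both health and disease.

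Cells were assigned to 3 classes by their counts of UMIs (unique molecular identifiers, each standing for 1 captured transcript). A smooth muscle cell had at least 5 UMIs of Myh11, the smooth muscle myosin heavy chain, and 0 of Pdgfra, a receptor of fibroblasts. A fibroblast had at least 1 UMI of Pdgfra and at most 2 of Myh11. A macrophage had at least 10 UMIs of C1qa, C1qb and Lyz2 together and under 5 of Myh11. Smooth muscle cells numbered 2254 (SHF baseline), 4652 (SHF AngII) and 6385 (CNC AngII). Of fibroblasts there were 3933, 2640 and 842 in the same order. Macrophages were 1763 in CNC AngII but 8 and 13 in the SHF libraries, so macrophage values come from CNC AngII alone. The sort by lineage can set these cell numbers.

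On the GRCm38 (mm10) assembly with the GENCODE M21 annotation, Ptn (ENSMUSG00000029838.11) lies at chr6:36714929-36810220 on the minus strand and Ptprz1 (ENSMUSG00000068748.7) at chr6:22875502-23052916 on the plus strand. Mdk (ENSMUSG00000027239.14) lies at chr2:91929805-91932297 and Sdc4 (ENSMUSG00000017009.3) at chr2:164424247-164443887, both on the minus strand. The other syndecan genes are on plus strands: Sdc1 (ENSMUSG00000020592.14) at chr12:8771323-8793715, Sdc2 (ENSMUSG00000022261.6) at chr15:32920723-33034935 and Sdc3 (ENSMUSG00000025743.14) at chr4:130792537-130826319. All 7 are protein coding, and 0 share exon sequence with another gene on the same strand. Exons of Sdc3 overlap 2 genes on the opposite strand, Gm12970 and Gm26716, and whether the counting used strand is not stated.

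Sequence upstream of the RefSeq starts is shown for Ptn, Sdc3 and Sdc4, the ligand that was high in few fibroblasts, the syndecan that was highest in macrophages and the one that was higher in the AngII libraries. The Ptn stretch is at chr6:36810221-36810429 (minus strand, 209 bases), that of Sdc3 at chr4:130792287-130792536 (plus strand, 250 bases) and that of Sdc4 at chr2:164443189-164443438 (minus strand, 250 bases), all from RefSeq on GRCm38.p6. The Ptn stretch leaves out 41 bases that GENCODE places inside the gene. The Sdc4 stretch lies within the longer GENCODE gene but in none of its exons. Capitals mark matches to the GC box (GGGCGG) and the TATA box (TATAA), searched on both strands.
Ptn: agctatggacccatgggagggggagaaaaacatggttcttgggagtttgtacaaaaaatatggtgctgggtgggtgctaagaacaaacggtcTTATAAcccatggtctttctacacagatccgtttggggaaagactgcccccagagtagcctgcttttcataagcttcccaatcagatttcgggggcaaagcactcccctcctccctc
Sdc3: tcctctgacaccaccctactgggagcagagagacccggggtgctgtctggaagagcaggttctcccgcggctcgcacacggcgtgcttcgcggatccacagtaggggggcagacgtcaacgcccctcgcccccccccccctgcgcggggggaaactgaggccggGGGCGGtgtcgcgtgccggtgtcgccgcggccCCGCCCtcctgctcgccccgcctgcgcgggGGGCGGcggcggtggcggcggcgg
Sdc4: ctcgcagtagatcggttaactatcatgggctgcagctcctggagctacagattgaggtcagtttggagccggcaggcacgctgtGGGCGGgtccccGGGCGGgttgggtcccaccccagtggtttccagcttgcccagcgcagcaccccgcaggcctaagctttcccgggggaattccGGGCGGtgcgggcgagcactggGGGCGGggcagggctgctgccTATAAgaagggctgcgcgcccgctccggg
The Sdc3 stretch held 3 GC boxes and 0 TATA boxes, and that of Sdc4 held 4 GC boxes and 1 TATA box. The Ptn stretch held 0 GC boxes and 2 TATA matches, which overlap and lie on opposite strands. Over all 32817 promoter windows in the table, 32.7% of 250-base windows held a GC box and 22.8% a TATA box, and 18.5% of 209-base windows held a TATA box. None of the 3 stretches held an AP-1 site (TGANTCA, in 6.75% of 250-base windows) or a CArG box (in 1.47%). A match is a description of these letters and not of factor binding.

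The deposited libraries held 9412, 11166 and 11098 barcodes with 92474476, 147854476 and 150954701 UMIs, in the order SHF baseline, SHF AngII and CNC AngII. After filtering, 8353, 9301 and 10192 cells remained, with medians of 10307, 13328 and 12609.5 UMIs per cell. Between 29 and 34 barcodes were shared between pairs of libraries. The 6 smooth muscle markers summed to between 23692 and 28622 CPM (UMIs of a gene per 1000000 UMIs of the class) in smooth muscle cells and to between 708 and 2074 CPM in fibroblasts. The 7 fibroblast markers summed to 37104 CPM in fibroblasts of SHF baseline and to 15089 and 13281 CPM in those of SHF AngII and CNC AngII, and Pdgfra itself, the gene of the gate, stood at 290, 150 and 166 CPM. All 8 macrophage markers were above 10 CPM in the macrophages. The baseline table lists 18760 genes and both AngII tables list 32285, so the baseline library was not annotated in the same way. The effect of AngII and the making of the libraries cannot be told apart in any comparison with baseline. The baseline analysed is of the SHF lineage, so CNC AngII differs from it in lineage as well as in infusion.

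Ptn, the secreted growth factor, was a fibroblast transcript in all 3 libraries, and its level in fibroblasts differed more between the AngII libraries than that of any other of the 7 genes with enough UMIs to be counted. In fibroblasts it stood at 95.5 CPM in SHF baseline (95% interval 92.4 to 98.6), 39.0 CPM (37.2 to 40.9) in SHF AngII and 148 CPM (141 to 155) in CNC AngII. In smooth muscle cells it stood at 4.45, 1.32 and 1.03 CPM, and in macrophages at 1.16 CPM. CNC AngII fibroblasts were therefore highest and SHF AngII fibroblasts lowest among the fibroblast sums, and every fibroblast sum was above every smooth muscle sum. The intervals of the 3 lowest sums, those of SHF AngII and CNC AngII smooth muscle cells and of macrophages, overlapped.

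**Figure D1:**
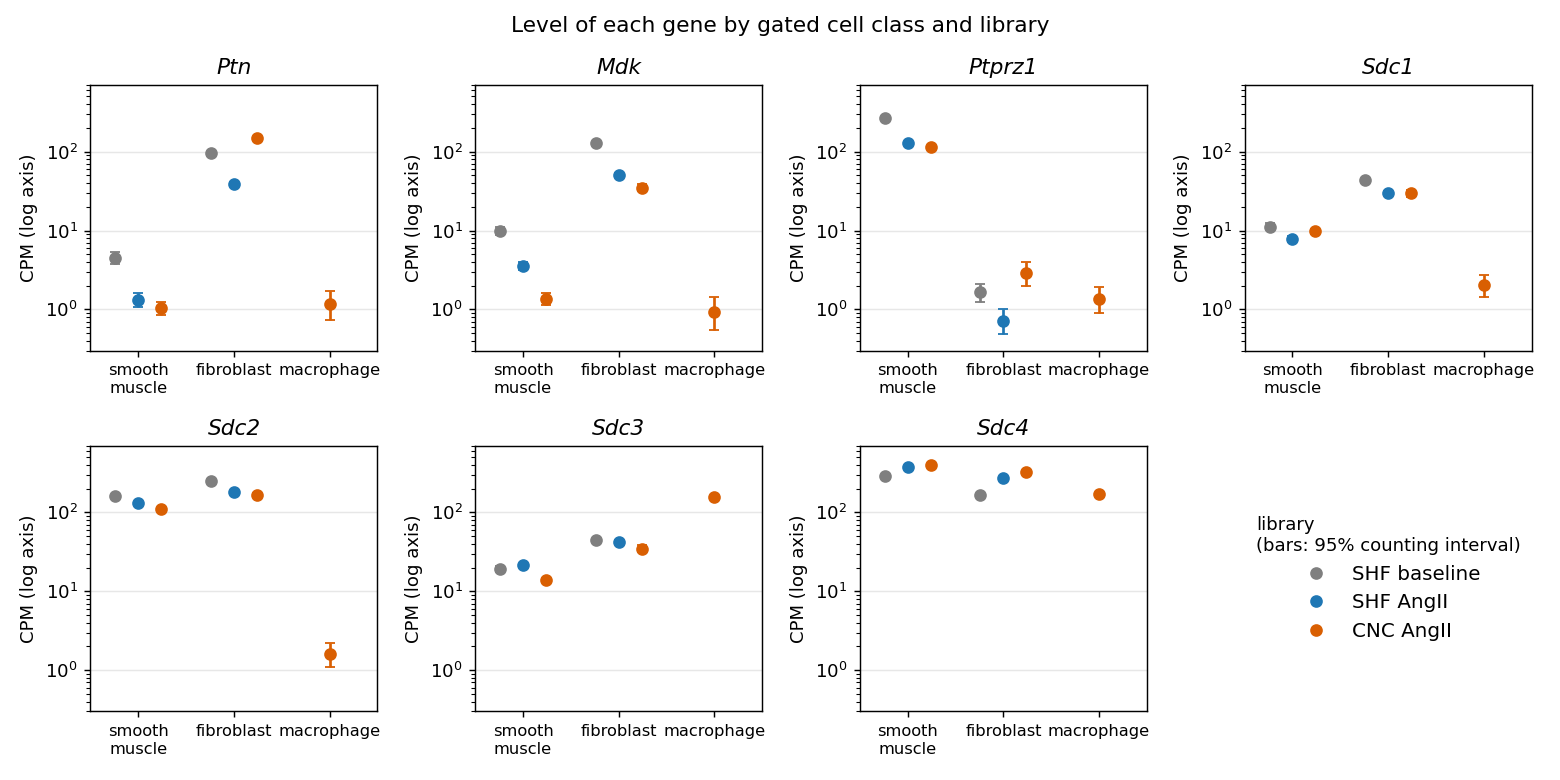
Each panel plots 1 gene, with the level in CPM on a log axis against the 3 gated cell classes; points are libraries, coloured as in the key, and bars are 95% counting intervals. Ptn and Mdk sit high in fibroblasts and Ptprz1 in smooth muscle cells, Sdc3 is highest in macrophages at 157 CPM, and Sdc2 is near 1.59 CPM there.

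Ratios are given as log2((CPM + 1)/(CPM + 1)). A gene was counted in a comparison if its mean CPM over both sums was at least 10, and it was called past 2-fold if the log2 ratio was at least 1 in size. In fibroblasts, CNC AngII over SHF AngII, Ptn had a log2 ratio of 1.90 (1.83 to 2.02 without the added 1 CPM), above 99.8% of all genes counted. It was the only one of 6 counted members past 2-fold there, against 0.564% of all genes. SHF AngII over SHF baseline, its log2 ratio in fibroblasts was -1.27 (-1.37 to -1.21). With Mdk it made 2 of 6 counted members past 2-fold in that comparison, against 15.4% of all genes (10.8% of all genes past 2-fold lower). The Ptn ratio to baseline depended on how cells were weighted and on which cells were used. It was -0.70 as a mean of per-cell shares. It was -0.35 when cells with at least 5000 UMIs were thinned to that depth before the gates were applied. That setting left 2475 fibroblasts in SHF baseline and 1462 in SHF AngII.

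Ptn UMIs came from few fibroblasts. Cells with at least 5 Ptn UMIs were 4.93% of fibroblasts in SHF baseline (194 cells, exact binomial interval 4.28% to 5.66%), 2.80% in SHF AngII (74 cells, 2.21% to 3.51%) and 8.19% in CNC AngII (69 cells, 6.43% to 10.3%). They held 88.9%, 89.7% and 94.1% of the Ptn UMIs of the class. The level inside these cells, for which the minimum of 5 UMIs sets a floor, was 1420, 1371 and 2062 CPM. The remaining fibroblasts stood at 11.3, 4.14 and 9.36 CPM. The highest single cell had 93, 103 and 122 Ptn UMIs and held 2.58%, 5.88% and 7.20% of the UMIs. Because the UMIs are concentrated in this way, the counting intervals of the Ptn sums are too narrow for a comparison of cells, and the shares of high cells carry wider ones.

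At equal depth the libraries kept their order. When each cell was thinned to 5000 UMIs after gating, with 3216, 2504 and 769 fibroblasts deep enough to be used, cells with at least 5 Ptn UMIs were 3.14% (2.57% to 3.80%), 1.24% (0.843% to 1.75%) and 5.98% (4.41% to 7.90%). Any Ptn UMI was found in 10.5%, 6.82% and 13.9% of unthinned fibroblasts, at median depths of 9531, 15485.5 and 12379.5 UMIs. In smooth muscle cells, at medians of 12440, 13336.5 and 13450 UMIs, the shares were 3.86%, 1.505% and 0.846%. The Ptn level of smooth muscle cells was 4.66%, 3.39% and 0.697% of that of fibroblasts. Dcn, a matrix proteoglycan of fibroblasts, reached 1.95%, 3.02% and 0.436% of its fibroblast level in the same cells. Lum, another such proteoglycan, reached 4.23%, 5.58% and 0.798%. The Ptn values were above those of Dcn in each library but below those of Lum in both AngII libraries, and the part of free RNA in the Ptn of smooth muscle cells was not tested.

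**Figure D2:**
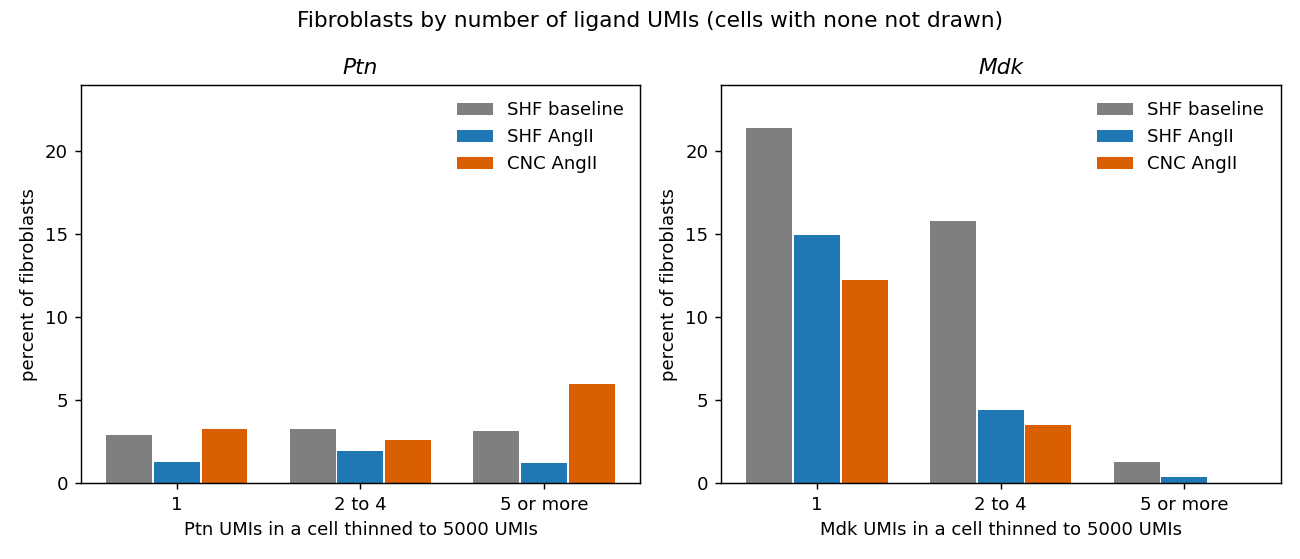
Bars give the percent of fibroblasts (vertical axis) with 1, 2 to 4, or 5 or more UMIs of Ptn (left) or Mdk (right) in cells thinned to 5000 UMIs; colours are libraries. For Ptn the bar of 5 or more UMIs reaches 5.98% in CNC AngII, 3.14% in SHF baseline and 1.24% in SHF AngII, whereas Mdk is spread over many cells with 1 UMI.

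The fibroblasts with at least 5 Ptn UMIs shared other transcripts, which were picked after their values were seen and are a description. Gpm6b, a membrane proteolipid, was higher than in fibroblasts with 0 Ptn UMIs by log2 ratios of 2.26, 2.13 and 3.09 in the 3 libraries. Tbx20, a T-box transcription factor of the developing heart, was higher by 3.90, 2.09 and 3.11, and Pdlim3, an actin-associated protein, by 3.33, 2.07 and 2.98. Penk, the enkephalin precursor, was higher by 1.47, 1.63 and 2.03. Eln, which encodes elastin, was lower, with log2 ratios of -2.09, -1.50 and -1.52. The Schwann or glial markers, whose cells are a textbook source of Ptn, summed to 35.5, 41.3 and 51.5 CPM over all fibroblasts, with 2 of 6 markers above 10 CPM. Their part in the Ptn values was not tested.

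Within fibroblasts, Ptn also differed between cells with and without transcripts of known subsets, and the direction was not the same in each library. Cells without a UMI of Pi16, a marker of adventitial fibroblasts with progenitor features, had 243 Ptn CPM in SHF baseline against 72.5 CPM in those with one. The same pair was 41.9 and 38.8 CPM in SHF AngII and 100 and 155 CPM in CNC AngII. For Cthrc1, a marker of activated, collagen-producing fibroblasts, cells without a UMI had more Ptn in each library: 104 against 50.7 CPM, 57.3 against 32.8 CPM and 281 against 84.1 CPM. Cells with Cthrc1 were deeper (median 19231 against 10656.5 UMIs in SHF AngII). At 5000 UMIs per cell the difference of SHF AngII was gone, at 49.4 CPM with and 50.1 CPM without Cthrc1, whereas SHF baseline (25.5 and 104 CPM) and CNC AngII (101.1 and 319 CPM) still differed. For the cartilage matrix genes Comp or Chad, Ptn was 137 CPM with and 89.6 CPM without in SHF baseline, but 28.5 and 228 CPM in CNC AngII. The values for Pi16 and for Comp or Chad are from unthinned cells.

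Mdk, the second growth factor, was also a fibroblast transcript but was spread over many cells. It was lower in both AngII libraries than at SHF baseline. In fibroblasts it stood at 130 CPM in SHF baseline (126 to 134), 51.2 CPM (49.1 to 53.3) in SHF AngII and 34.8 CPM (31.4 to 38.3) in CNC AngII. In smooth muscle cells the values were 9.81, 3.55 and 1.35 CPM, and in macrophages 0.915 CPM. Fibroblasts and smooth muscle cells of SHF baseline were highest in Mdk and those of CNC AngII lowest, which differs from the order of Ptn in fibroblasts. The log2 ratio of SHF AngII over SHF baseline in fibroblasts was -1.33 (-1.42 to -1.27), and that of CNC AngII over SHF AngII was -0.54 (-0.72 to -0.40).

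Any Mdk UMI was found in 50.1%, 41.7% and 26.8% of fibroblasts, and in 38.5%, 19.8% and 15.7% at 5000 UMIs per cell. In smooth muscle cells the unthinned shares were 10.4%, 3.87% and 1.90%. The Mdk level of smooth muscle cells was 7.55%, 6.94% and 3.87% of that of fibroblasts, above the corresponding values of Dcn and Lum in each library. Fibroblasts without Pi16 had more Mdk than those with it in all 3 libraries, at 210 against 118 CPM, 104 against 46.6 CPM and 56.5 against 31.6 CPM. Fibroblasts with Cthrc1 had less, at 93.5 against 137 CPM, 45.8 against 66.7 CPM and 25.1 against 54.9 CPM. These subset values are from unthinned cells, and cells with Cthrc1 were deeper than those without, as given for Ptn.

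**Figure D3:**
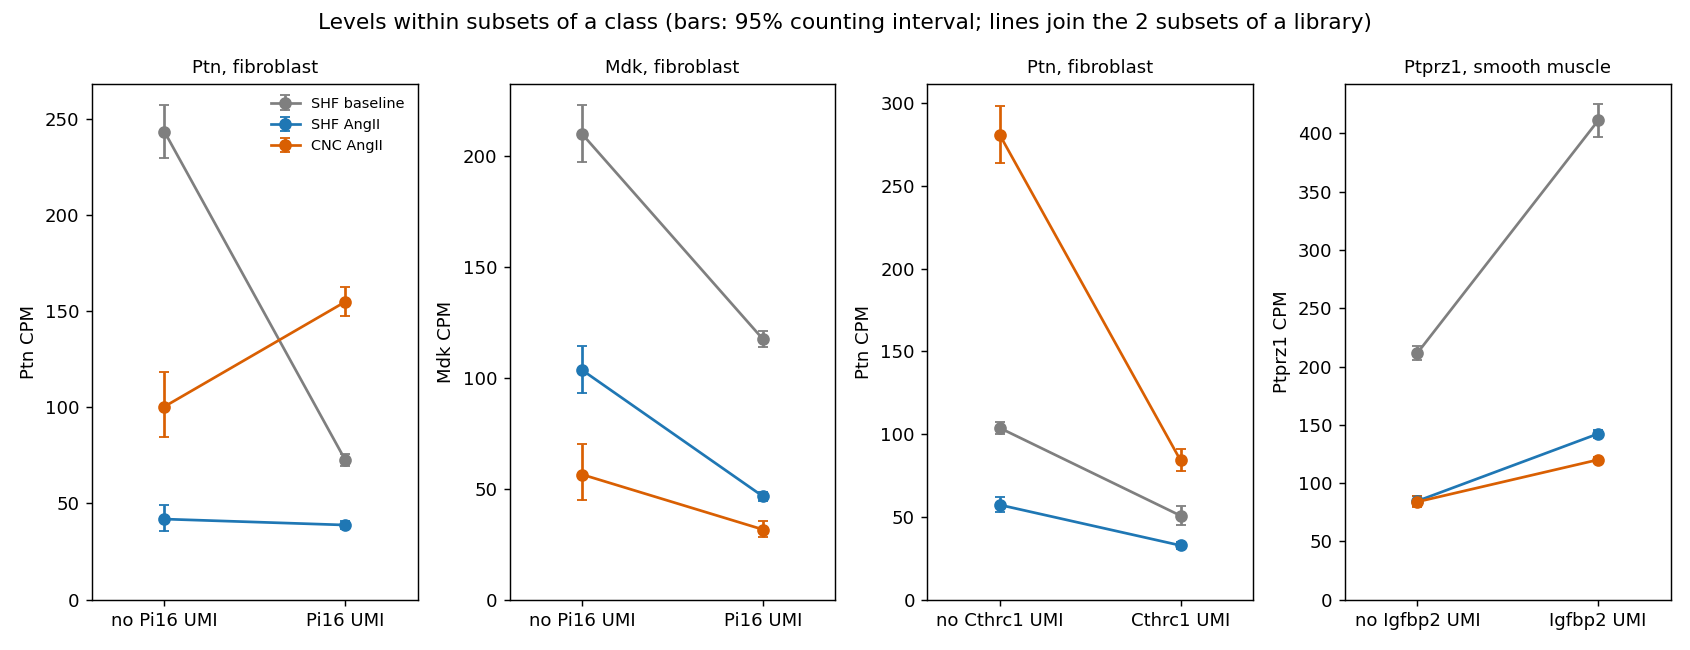
Each panel plots the level in CPM of 1 gene in cells without (left) and with (right) a UMI of a subset gene; colours are libraries, bars are 95% counting intervals and lines join the 2 subsets of a library. Mdk is lower in Pi16-positive fibroblasts in all 3 libraries, Ptn is not, and Ptprz1 is higher in Igfbp2-positive smooth muscle cells in all 3. Levels are from unthinned cells.

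Ptprz1, the phosphatase receptor of both ligands, was a smooth muscle transcript and was lower in both AngII libraries than at SHF baseline. In smooth muscle cells it stood at 266 CPM in SHF baseline (260 to 272), 127 CPM (125 to 130) in SHF AngII and 114 CPM (112 to 117) in CNC AngII. In fibroblasts it stood at 1.64, 0.713 and 2.88 CPM and in macrophages at 1.35 CPM. The baseline level was thus above both AngII levels, which lay close to each other. The log2 ratio of SHF AngII over SHF baseline was -1.06 (-1.11 to -1.02), lower than in all but 2.89% of genes. It was the only one of 4 counted members past 2-fold in that comparison, against 6.37% of all genes (3.51% of all genes past 2-fold lower). The Ptprz1 ratio was under 2-fold when cells with at least 5000 UMIs were thinned to that depth before gating (-0.81). It was also under 2-fold with a stricter cell filter (-0.77, a minimum of 1000 genes and a mitochondrial limit of 5%). CNC AngII over SHF AngII, the log2 ratio was -0.15 (-0.19 to -0.11), and 0 of 4 counted members were past 2-fold, against 0.777% of all genes.

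Of all Ptprz1 UMIs in kept cells, 86.1%, 92.0% and 93.9% came from smooth muscle cells. A Ptprz1 UMI was found in 72.8%, 65.03% and 65.2% of these cells, and in 55.7%, 41.5% and 39.8% at 5000 UMIs per cell. In fibroblasts the unthinned shares were 0.966%, 1.14% and 2.97%. Acta2, the smooth muscle actin, reached 1.97%, 5.58% and 5.91% of its smooth muscle level in fibroblasts and Ptprz1 0.617%, 0.560% and 2.52%. Myh11, the gene of the gate, which allows at most 2 of its UMIs in a fibroblast, reached 0.234%, 0.454% and 0.802%. The part of free RNA in the Ptprz1 of fibroblasts was not tested. The ligands and this receptor were therefore found mainly in different classes of cells.

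Ptprz1 differed between smooth muscle cells split by each of 2 transcripts, in opposite directions. Cells with a UMI of Igfbp2, a secreted protein that binds insulin-like growth factors, had 411 Ptprz1 CPM against 212 CPM without in SHF baseline, 142 against 84.6 CPM in SHF AngII and 120 against 83.9 CPM in CNC AngII. Cells with at least 5 UMIs of Spp1 (osteopontin, a phosphoprotein of injured arteries) had less Ptprz1, at 62.0 against 131 CPM in SHF AngII (157 cells) and 43.4 against 125 CPM in CNC AngII (538 cells). SHF baseline had 1 such cell. Exons of Spp1 overlap Gm42793 on the same strand, so its count may hold reads of that gene. For Tnnt2, a troponin of heart muscle, Ptprz1 with and without a UMI was 264 and 270 CPM, 129 and 125 CPM, and 109 and 116 CPM. All of these subset values are from unthinned cells, so subsets may differ in depth.

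The AngII ratios of Ptprz1 and Ptn stood beside a shift over all genes. The median log2 ratio of SHF AngII over SHF baseline was -0.10 over all genes in smooth muscle cells and -0.21 in fibroblasts, and scaling by trimmed means (TMM) moved these medians to 0.07 and 0.06. Under that scaling the share of calls that were higher went from 44.8% to 65.5% in smooth muscle cells and from 30.2% to 58.6% in fibroblasts. The log2 ratio of Ptprz1 then became -0.89, that of Ptn -0.995 and that of Mdk -1.05, and Sdc4 in fibroblasts became 1.01. The counted members past 2-fold under that scaling were Mdk, lower, and Sdc4, higher, both in fibroblasts. The ratios to baseline also moved with the span of genes. In fibroblasts the median was 0.12 for genes under 10 kb and -0.75 for genes over 300 kb, and in smooth muscle cells 0.11 and -0.50. Ptn spans 95292 bases, and genes of 30 to 100 kb had medians of -0.23 in smooth muscle cells and -0.38 in fibroblasts. Ptprz1 spans 177415 bases and Sdc2 114213, and genes of 100 to 300 kb had medians of -0.31 and -0.52. Mdk spans 2493 bases. The part of gene span in the ratios was not tested.

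**Figure D4:**
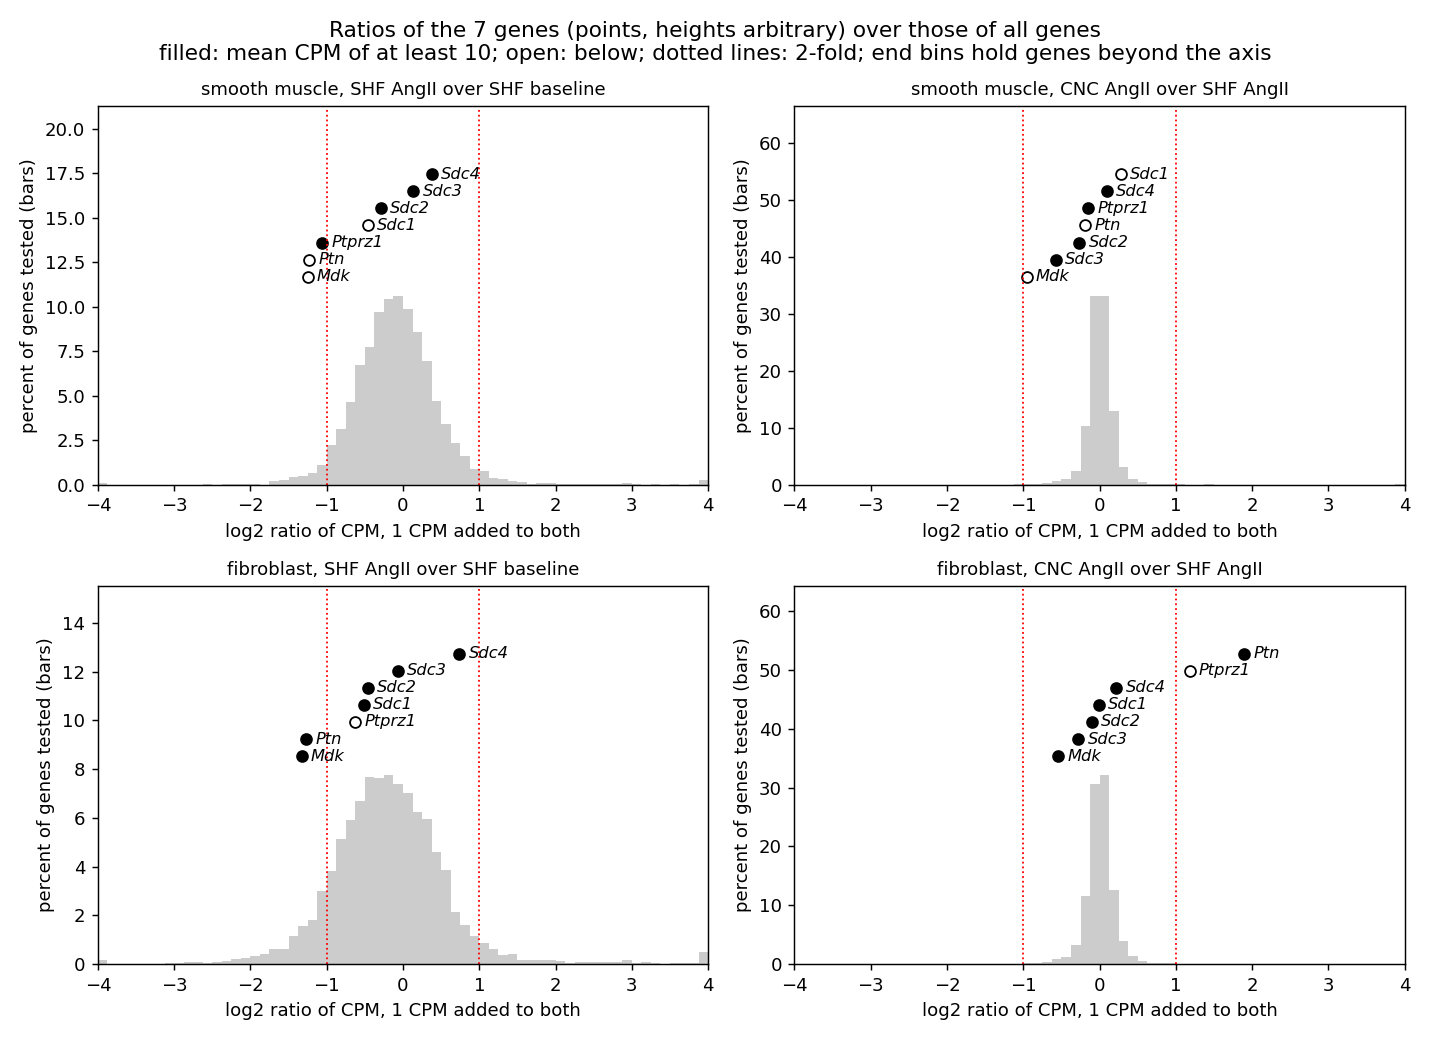
Grey bars give the percent of all genes counted (vertical axis) by log2 ratio of CPM (horizontal axis) in 4 comparisons between libraries; points mark the 7 genes at arbitrary heights, filled where the mean CPM was at least 10, and dotted lines mark 2-fold. Against baseline (left panels) Ptprz1 in smooth muscle cells and Ptn and Mdk in fibroblasts lie past the lower line, and in CNC AngII over SHF AngII fibroblasts Ptn lies far past the upper line at 1.90.

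Sdc4, the syndecan of focal adhesions, was higher in both AngII libraries than at SHF baseline, in smooth muscle cells and in fibroblasts. In smooth muscle cells it stood at 286 CPM (SHF baseline), 373 CPM (SHF AngII) and 398 CPM (CNC AngII). In fibroblasts it stood at 165, 276 and 321 CPM, and in macrophages at 171 CPM. Both classes shared this order of libraries. The log2 ratio of SHF AngII over SHF baseline was 0.38 (0.35 to 0.42) in smooth muscle cells and 0.74 (0.70 to 0.79) in fibroblasts, the latter above 92.4% of genes but under 2-fold. The fibroblast ratio was past 2-fold under TMM scaling (1.01) and median-of-ratios scaling (1.02). A Sdc4 UMI was found in 57.8%, 82.0% and 79.1% of fibroblasts and, at 5000 UMIs per cell, in 46.8%, 61.1% and 65.8%. Among unthinned fibroblasts, those without Pi16 had more Sdc4 in all 3 libraries, at 225 against 156 CPM, 380 against 267 CPM and 401 against 310 CPM.

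Sdc2, a syndecan of mesenchymal cells, was lower in CPM in both AngII libraries than at SHF baseline. In fibroblasts it stood at 249, 180 and 168 CPM, and in smooth muscle cells at 161, 132 and 109 CPM. Macrophages had 1.59 CPM, with a UMI in 1.59% of cells against 76.5% of CNC AngII fibroblasts. The log2 ratio of SHF AngII over SHF baseline was -0.46 (-0.51 to -0.42) in fibroblasts and -0.29 (-0.34 to -0.24) in smooth muscle cells, and both were under 2-fold. These ratios lay above 34.3% and 35.0% of genes, and under TMM scaling they were -0.19 and -0.11. Genes of 100 to 300 kb, the span of Sdc2, had medians of -0.52 and -0.31 in the same order. Sdc1, the syndecan best known from epithelia and plasma cells, was at 43.1, 29.95 and 29.7 CPM in fibroblasts, 11.2, 7.85 and 9.73 CPM in smooth muscle cells and 2.02 CPM in macrophages. Its fibroblast levels in SHF AngII and CNC AngII had overlapping intervals.

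Sdc3 was higher in macrophages than in the other classes of CNC AngII, where Sdc4 was the other syndecan of macrophages. It stood at 157 CPM there (151 to 162), with a UMI in 70.8% of cells, against 34.8 CPM in fibroblasts and 13.9 CPM in smooth muscle cells of the same library. Of all syndecan UMIs in macrophages, 47.3% were Sdc3 and 51.6% Sdc4, while Sdc1 and Sdc2 made up 0.611% and 0.480%. In the SHF libraries Sdc3 was at 44.4 and 42.3 CPM in fibroblasts and at 19.3 and 21.3 CPM in smooth muscle cells. Between the latter pair the log2 ratio, SHF AngII over SHF baseline, was 0.13, and it was -0.86 with the stricter cell filter, which left 118 smooth muscle cells at baseline. CNC AngII over SHF AngII, its log2 ratio in smooth muscle cells was -0.58 (-0.72 to -0.50), lower than in all but 1.04% of genes but under 2-fold. C1qa, a complement gene of macrophages, reached 1.05% of its macrophage level in smooth muscle cells of CNC AngII and Sdc3 8.90%. Within unthinned macrophages, Sdc3 was 160 CPM in cells with a UMI of Lyve1, a marker of resident arterial macrophages, and 141 CPM in cells without. Sdc4 was 157 and 226 CPM in the same order.

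Fibroblasts without Pi16 had more Sdc3 in all 3 libraries, at 102 against 35.5 CPM, 70.3 against 39.9 CPM and 58.5 against 31.3 CPM. Fibroblasts with Cthrc1 had less, at 30.7 against 47.0 CPM, 35.1 against 63.3 CPM and 29.2 against 46.3 CPM. Both sets of values are from unthinned cells, and cells with Cthrc1 were deeper than those without.

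Without TMM scaling, the sum of the 4 syndecans was somewhat higher in both AngII libraries than at SHF baseline. Its make-up moved towards Sdc4. The sum was 477, 534 and 531 CPM in smooth muscle cells, 501, 528 and 553 CPM in fibroblasts and 331 CPM in macrophages. TMM scaling raised the median log2 ratio of SHF AngII over SHF baseline by 0.17 in smooth muscle cells and 0.27 in fibroblasts. The sums were not recomputed under that scaling. UMIs of this 3' assay are not scaled for how well each transcript is captured, so the shares are compared between libraries and not between genes. Among the syndecan UMIs of smooth muscle cells, Sdc4 made up 59.9% at SHF baseline, and after AngII 69.9% in the SHF and 75.0% in the CNC library. In fibroblasts its share was 32.9%, 52.2% and 58.0%. The share of Sdc2 was 33.7%, 24.7% and 20.6% in smooth muscle cells and 49.6%, 34.1% and 30.3% in fibroblasts.

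**Figure D5:**
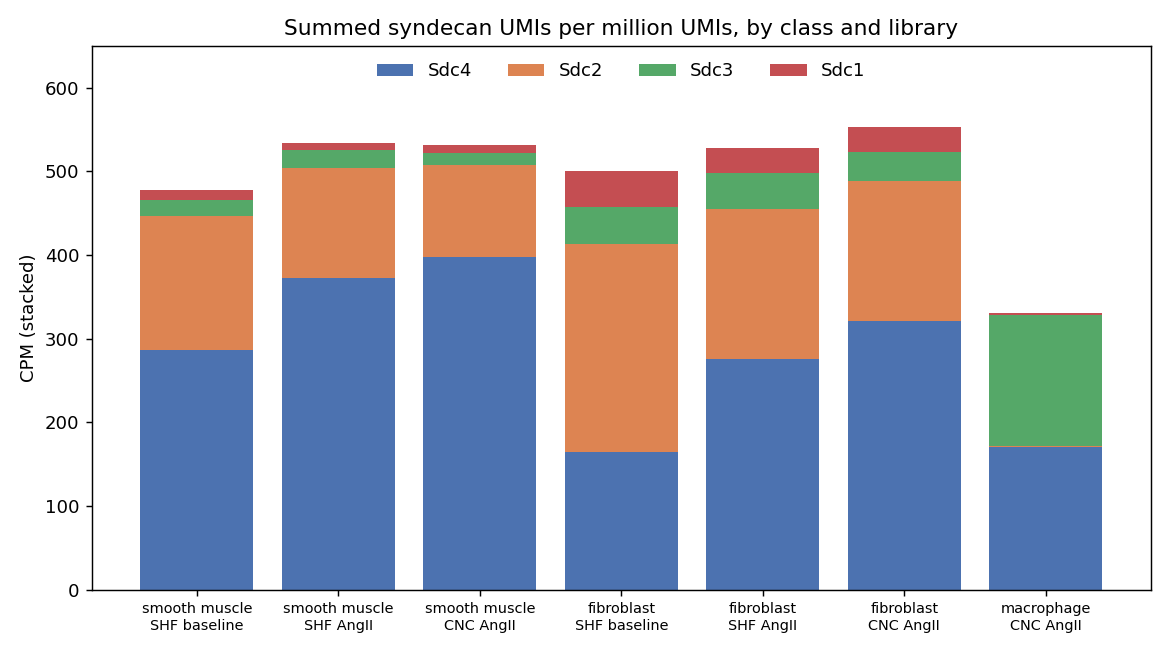
Stacked bars give the level in CPM of the 4 syndecans in each class and library, starting at 0. Without TMM scaling, the height stays between 477 and 553 CPM in smooth muscle cells and fibroblasts. The Sdc4 part grows and the Sdc2 part shrinks in the AngII libraries, and the macrophage bar is nearly all Sdc3 and Sdc4.

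At 5000 UMIs per cell, 2 or more syndecans were often found in the same cell. Exactly 2 were found in 39.2%, 38.8% and 35.9% of smooth muscle cells, in 32.9%, 36.7% and 37.7% of fibroblasts and in 23.2% of macrophages. None was found in 14.2%, 11.7% and 12.4% of fibroblasts. Fibroblasts with a Ptn UMI had Sdc1 in 24.4% of cells (73 of 299) in SHF baseline against 16.5% of the rest. They had it in 4.50% (5 of 111) against 13.4% in SHF AngII and 4.396% (4 of 91) against 15.04% in CNC AngII. The AngII shares rest on few cells. They had Sdc3 in 32.4% against 14.02% of the rest in SHF baseline, 18.9% against 18.4% in SHF AngII and 12.1% against 16.5% in CNC AngII. For Sdc4 the shares were 51.8% against 46.2%, 52.3% against 61.5% and 44.0% against 68.7% in the same order.

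Fibroblasts and smooth muscle cells of the same library differed most in Ptn, Mdk and Ptprz1 and less in the syndecans. In SHF baseline, 5 of 7 members were past 2-fold against 21.5% of all genes. The counts were 4 of 7 against 22.5% in SHF AngII and 5 of 7 against 21.4% in CNC AngII. The log2 ratios of fibroblasts over smooth muscle cells were 4.15, 4.11 and 6.20 for Ptn, 3.60, 3.52 and 3.93 for Mdk and -6.66, -6.23 and -4.89 for Ptprz1. Those of Sdc1 were 1.85, 1.81 and 1.52 and those of Sdc3 1.16, 0.96 and 1.26. The Sdc3 ratio of SHF baseline was -0.15 with the stricter cell filter, which left 118 of the 2254 smooth muscle cells of that library. The median mitochondrial share of smooth muscle cells was 7.36% in SHF baseline against 5.44% and 5.16% in the AngII libraries. Sdc2 (0.63, 0.45 and 0.61) and Sdc4 (-0.79, -0.43 and -0.31) were under 2-fold in each library. In macrophages over fibroblasts of CNC AngII, 5 of 6 counted members were past 2-fold against 35.8% of all genes. Sdc3 was higher (2.14), and Ptn (-6.11), Sdc2 (-6.03), Mdk (-4.22) and Sdc1 (-3.34) were lower.

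Other genes of the pathway were followed in 8 lists. Of 24 receptors and partners of Ptn and Mdk, 15 were counted in smooth muscle cells for SHF AngII over SHF baseline, and 3 were past 2-fold lower: Notch2 (-1.31) and Nrp1 (-1.02), both described as partners of these ligands, and the phosphatase Ptprd (-1.22). The list's median was -0.33 against -0.10 over all genes. In fibroblasts 4 of 15 were lower: Notch2 (-2.07), the kinase Fyn (-1.39), Nrp1 (-1.32) and Ptprd (-1.09), with a median of -0.54 against -0.21. Over all genes, 3.51% were past 2-fold lower in smooth muscle cells and 10.8% in fibroblasts. Notch2 spans 136835 bases, Nrp1 144760, Fyn 196527 and Ptprd 2270724. Of all genes of 100 to 300 kb, 4.08% were past 2-fold lower in smooth muscle cells and 20.2% in fibroblasts. Of those over 300 kb, 10.5% and 31.7% were. Notch2 and Nrp1 overlap small genes on the same strand, Gm42820 and Mir1903, so their counts may hold some of those reads. CNC AngII over SHF AngII, 0 genes of the list were past 2-fold in either class, against 0.777% of all genes in smooth muscle cells and 0.564% in fibroblasts. Between classes at baseline, Lrp1, a receptor of Mdk, was at 967 CPM in fibroblasts and 169 CPM in smooth muscle cells, whereas Cspg4, a proteoglycan bound by Ptn, was at 13.9 and 170 CPM. Itgb3, an integrin subunit bound by Ptn, was at 4.76 and 45.3 CPM.

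Of the 7 other ligands of Ptprz1, Tnc (tenascin C, a matrix protein of wounds) was the one counted in smooth muscle cells. It stood at 8.11 CPM in SHF baseline and 58.4 CPM in SHF AngII, a log2 ratio of 2.71 (2.66 to 3.04), against a lower Ptprz1 in the same cells. Of 13 other heparan sulfate proteoglycans, 7 were counted in smooth muscle cells and 3 were past 2-fold lower in SHF AngII over SHF baseline: Gpc6 (-2.27), Gpc3 (-2.01) and Tgfbr3 (-1.09). In fibroblasts 4 of 8 were lower: Gpc6 (-1.68), Gpc3 (-1.53), Tgfbr3 (-1.47) and Spock2 (-1.24). Over all genes the shares past 2-fold lower were 3.51% and 10.8%. Gpc3 spans 341525 bases and Gpc6 1051230, and of all genes over 300 kb 10.5% were past 2-fold lower in smooth muscle cells and 31.7% in fibroblasts. Tgfbr3 spans 183060 bases, and of genes of 100 to 300 kb 4.08% and 20.2% were past 2-fold lower. It overlaps Gm43422 on the same strand.

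Of 23 genes of heparan sulfate synthesis and editing, 0 of 8 counted in smooth muscle cells and 3 of 15 in fibroblasts were past 2-fold in SHF AngII over SHF baseline, all lower: Xylt1 (-1.92), which starts the chains, Hs3st1 (-1.44) and Sulf2 (-1.08). Beside these and the following counts, 6.37% of all genes were past 2-fold in smooth muscle cells (2.86% higher) and 15.4% in fibroblasts (4.65% higher). Xylt1 spans 292602 bases, Hs3st1 141541 and Sulf2 82575. In fibroblasts 20.2% of genes of 100 to 300 kb and 12.8% of those of 30 to 100 kb were past 2-fold lower. Of 16 genes of chondroitin sulfate synthesis, Chst12 was higher in smooth muscle cells (1.12), 1 of 9 counted, and 0 of 10 were past 2-fold in fibroblasts. Of 12 cytoplasmic partners of syndecans, 0 were past 2-fold in either class. Of 12 sheddases and inhibitors, Timp1, an inhibitor of metalloproteinases, went from 23.2 to 278 CPM in smooth muscle cells and from 203 to 3267 CPM in fibroblasts. Mmp3, which can shed syndecans, was higher in both classes (1.79 and 1.43), and Mmp2 was lower in fibroblasts (-1.28). Of 18 ligands and receptors that depend on heparan sulfate, 1 of 10 was higher in smooth muscle cells, Itga5 (1.22), the fibronectin receptor subunit. In fibroblasts 4 of 12 were higher, Hbegf (1.31), Itga5 (1.26), Fgf18 (1.25) and Cxcl12 (1.003), and 1 was lower, Vegfa (-1.56). CNC AngII over SHF AngII, 0 genes of any list were past 2-fold in either class. Over all genes the shares were also small, at 0.777% in smooth muscle cells and 0.564% in fibroblasts.

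The genes most like each member were ranked by Pearson's r of log2(CPM + 1) over 7 sums (smooth muscle cells and fibroblasts of 3 libraries and macrophages of CNC AngII), among 5293 genes. The sums share libraries, and the values are descriptions. For Ptn they were Gpm6b (0.977), Aida (0.976) and Cst3 (0.975), for Mdk Wnt5a (0.998), Ackr3 (0.996) and C1ra (0.994), and for Ptprz1 Mrvi1 (0.997), Mylk (0.996) and Tns1 (0.995). Gpm6b was also among the genes higher in the fibroblasts with high Ptn. For Sdc1 the nearest was Sptan1 (0.997), for Sdc2 Wwtr1 (0.999), for Sdc3 Dnttip2 (0.992) and for Sdc4 Schip1 (0.982).

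The gates have thresholds, and the cells beside them were also read. Fibroblasts with 1 Pdgfra UMI had 115, 39.8 and 169 Ptn CPM in the 3 libraries, and cells just outside the gate, with 0 Pdgfra and at most 2 Myh11 UMIs, had 111, 51.0 and 23.8 CPM. In CNC AngII the cells outside include the macrophages. Cells in no gate held 27.1%, 30.1% and 30.7% of all Ptn UMIs of kept cells. For smooth muscle cells, Ptprz1 was 34.2, 48.8 and 61.2 CPM at 5 Myh11 UMIs and 193, 42.2 and 53.5 CPM at 4, from 13 to 67 cells each.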

How the data were processed

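Single-cell counts of 3 libraries were analysed. The deposited files hold raw UMI counts per gene and barcode, which the authors did not normalise in these files. The submitters' processing notes name mm10, fastp, STAR 2.5 and HTSeq 0.6.1, without roles. Genes were matched between tables by name or, for 514 genes, by a unique synonym, leaving 18108 common genes; comparisons with baseline used these. The members and lists were chosen with earlier results of these data known. Barcodes with fewer than 500 genes or above 10% mitochondrial UMIs were dropped, as were doublets marked by Scrublet in scanpy 1.11.5 (2.63%, 1.99% and 2.66%). For each gated class of a library, the UMIs of a gene were summed over cells and scaled to the summed UMIs. Genes used in the gates were left out of counts over all genes. Intervals are exact Poisson (levels), conditional binomial (ratios, without the added CPM) and Clopper-Pearson (shares), at 95%. No test was made. TMM factors came from edgeR 4.0.16. The ratio script was checked on simulated data. All 7 members are named in every class and library, and of each list the genes with the largest ratios past 2-fold or with a known partnership with a member. The fibroblast gate on Dcn was added after seeing the data.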

Additional observations from a re-analysis of the deposited data

Results flagged for a closer look

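In the main setting, Ptprz1 went in opposite directions in the 2 classes between the AngII libraries. The log2 ratio of CNC AngII over SHF AngII was -0.15 in smooth muscle cells and 1.18 in fibroblasts. The fibroblast value rests on 33 and 32 UMIs, below the gene minimum, and ranged from 0.0 to 1.29 over the alternative settings. No test compared the classes.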

How the results depend on the processing

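No paired analysis was possible because each group had 1 library. Of 882 member ratios recomputed under 15 other settings and 1 added after seeing the data, 657 moved by less than their counting interval, 224 moved further and 1, past 2-fold before, reversed: Sdc3 in fibroblasts over smooth muscle cells of SHF baseline was -0.15 with a stricter cell filter (at least 1000 genes, at most 5% mitochondrial UMIs), which left 118 of 2254 smooth muscle cells there. In all, 12 ratios changed sign, among them Sdc3 in smooth muscle cells, SHF AngII over SHF baseline, from 0.13 to -0.86 under that filter. Of 126 counts of members past 2-fold, 110 stayed within 1.5 times. For SHF AngII over SHF baseline in smooth muscle cells the count was 0 under TMM scaling, median-of-ratios scaling, a mean of per-cell shares and thinning to 2000 or 5000 UMIs, 2 with the stricter cell filter and 3 with no gene minimum. In fibroblasts it was 1 under per-cell shares, both thinnings and stricter gates. For CNC AngII over SHF AngII in fibroblasts it was 2 with no gene minimum. With a mean CPM of at least 50, it was 2, 1 and 2 for fibroblasts over smooth muscle cells in SHF baseline, SHF AngII and CNC AngII, and 3 for macrophages over fibroblasts. Over all alternatives the log2 ratio of SHF AngII over SHF baseline ranged from -1.10 to -0.77 for Ptprz1 in smooth muscle cells, and in fibroblasts from -1.28 to -0.35 for Ptn, from -1.34 to -1.04 for Mdk and from 0.65 to 1.02 for Sdc4. That of Ptn in CNC AngII over SHF AngII fibroblasts ranged from 1.69 to 1.998. Sdc3 in fibroblasts of SHF AngII over SHF baseline was -0.07 and took the other sign under several settings, up to 0.27. Fibroblast Ptprz1 rests on 32 to 62 UMIs per library.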
